A study of Rattus norvegicus with 24 samples.

Results

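Collagen chain genes were measured in the rat left ventricle on an Illumina bead array. Every probe whose symbol in the non-normalized table begins with Col, a type number, the letter a and a chain number was taken, after the suffixes _predicted and _mapped were removed. This gave 31 of 22517 probes under 30 names. One of them, Col4a3bp, now carries the symbol Cert1 and codes for a ceramide transfer protein, so it is not a collagen chain and is left out of the counts below; 30 probes of 29 chain names remained. They were split into 9 probes of fibrillar chains (types 1, 3, 5 and 11), 5 of basement membrane chains (types 4, 15 and 18) and 16 of other chains. The samples were 24 male Wistar rats in 4 groups of 6: coronary ligation with saturated fat chow, coronary ligation with normal chow, sham operation with saturated fat chow, and sham operation with normal chow, named ligated fat, ligated chow, sham fat and sham chow here. Ligation closed the left main coronary artery to cause heart failure, and the diets began directly after surgery. The fat chow took 60% of its calories from fat, with 25% palmitic, 33% stearic and 33% oleic acid. All rats weighed 300 to 350 g and were handled 3 to 6 hours into their dark phase. The time between surgery and tissue collection, and whether scar was part of the sampled ventricle, are not given in the sources used here.

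Collagens are proteins of 3 chains wound into a triple helix. Fibroblasts of the heart secrete types I and III, which assemble into the fibrils that give the ventricle its tensile strength, and type V helps to start those fibrils. Type IV forms the sheet-like network of basement membranes around cardiomyocytes and capillaries, while further types coat fibrils, anchor cells or form other networks. Deposition of collagen is a known part of scar formation and fibrosis after loss of heart muscle.

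Each array detected 8884 to 10475 probes, and 10540 probes with a detection p-value under 0.05 on at least 6 arrays were kept. Values are normalized log2 signals, so a difference of 1 is a 2-fold change, and precision is set by the 6 animals per group. Arrays of one group correlated at 0.969 to 0.992. Background signal, the median of undetected probes, was 150.7 to 169.2 on 12 arrays and 85.12 to 98.16 on the other 12. The high-background arrays held 5 ligated fat, 2 ligated chow, 3 sham fat and 2 sham chow animals. Of all kept probes, 2220 (21.1%) differed between these sets at an adjusted p under 0.05. Among collagen chains, Col7a1 alone did so (-0.31, high minus low background, adjusted p = 0.00025 by limma). Cardiomyocyte markers were strong, with 10 of 12 kept. Their summed level had medians of 18.28 in ligated fat, 18.28 in ligated chow, 18.28 in sham fat and 18.29 in sham chow animals. In whole ventricle, fewer cells of a type and less RNA per cell cannot be told apart.

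Of the 30 chain probes, 18 were kept: 6 fibrillar, 4 basement membrane and 8 other chains. On all 24 arrays, 12 were detected, namely Col1a1, Col1a2, Col3a1, Col5a1, Col5a2, Col4a1, Col15a1, Col18a1, Col6a3, Col8a1, Col14a1 and Col16a1. The 12 probes that were not kept included 8 detected on 0 arrays: 1 of the 2 Col11a1 probes, Col2a1, Col6a2, Col8a2, Col9a1, Col9a2, Col19a1 and Col23a1. The remaining 4, the other Col11a1 probe, Col11a2, Col4a4 and Col12a1, were detected on 1 to 3 arrays. A probe not well above background gives only an upper bound for its gene, and probe levels are not comparable between genes.

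A few animals were high or low across many chains, which share the RNA and the array of the animal. Sham chow animal 15 was the highest of its group for 9 of the 12 chains detected on all arrays, and ligated fat animal 28 for 10. Ligated fat animal 18 was the lowest of its group for 11 of these 12 chains. Sham chow animal 13 was the lowest for 9 and ligated chow animal 21 for 7. Where leaving out one of these animals changed a call, or moved a difference of Col1a1 or Col3a1 for ligation or for fat in sham animals by over 1.5 times, the value without it stands beside the result.

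Over both diets, ligation raised 3 of the 18 kept chains and lowered none. They were Col8a1, a chain of the short network-forming type VIII collagen found around vessels and made by vascular cells and fibroblasts, Col14a1, which coats fibrils, and Col17a1, a transmembrane collagen best known from the junctions that fix skin cells to their basement membrane. Col17a1 was dim and passed the filter of 6 arrays only with the ligated animals, where it was higher. Among all kept probes, 3.1% were called in either direction and 2.02% were called higher. The difference was above 0 for 15 of 18 chains, and for 12 of the 12 detected on all arrays, against 46.1% of all probes. The median difference was 0.25 over the chains and -0.01 over all probes. On fat chow 14 of 18 chains were above 0 (46.6% of all probes), with a median of 0.31. On normal chow 14 of 18 were (49.6% of all probes), with a median of 0.18. At an unadjusted p under 0.05, 8 chains passed over both diets, 7 on fat chow and 4 on normal chow, all higher, where 15.4%, 11.6% and 10.4% of all probes passed in either direction. A call here is a Benjamini-Hochberg adjusted p under 0.05 over all kept probes in limma, with 6 animals per group in every comparison.

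Col8a1 had the largest difference of the 18 chains over both diets. The 300 bases around its annotated start are printed because it is the chain called in most comparisons; they come from RefSeq on build GRCr8, chr11:56246532-56246831, plus strand, and run from 250 bases before the start to the first 50 after it. Capitals mark the GC-box letters GGGCGG on either strand, printed as CCGCCC where they lie on the other one.
Col8a1: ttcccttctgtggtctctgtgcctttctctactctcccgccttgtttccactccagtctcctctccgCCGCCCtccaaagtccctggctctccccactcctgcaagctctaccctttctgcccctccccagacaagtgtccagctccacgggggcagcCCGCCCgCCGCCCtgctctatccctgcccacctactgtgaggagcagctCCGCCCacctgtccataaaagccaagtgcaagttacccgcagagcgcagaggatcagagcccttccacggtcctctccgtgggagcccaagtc
Both strands of each window were searched for GGGCGG, for CCAAT and for TATAAA, the letters of the GC, CCAAT and TATA boxes, which transcription factors can bind. The Col8a1 window held 4 GGGCGG and no CCAAT or TATAAA. Of 33469 rat promoter windows of this length, 33.1% held GGGCGG, 37.5% CCAAT and 14.2% TATAAA. Among the 22 of 29 chain names with a window, the shares were 59.1%, 27.3% and 9.09%. In the windows printed here no match overlapped another. A match describes these letters and is not evidence of binding.

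The Col8a1 signal ran from 10.53 over a median of 11.44 to 12.69 in ligated fat animals, against 9.84, 10.25 and 10.74 (lowest, median and highest, as in later sets of 3 values) in sham fat animals. In ligated chow animals it ran from 10.73 over 11.86 to 12.11, against 9.92, 10.20 and 11.29 in sham chow animals. On fat chow 4 of 6 ligated animals lay above every sham animal, and on normal chow 5 of 6 did, so the groups overlapped slightly on either diet. Col8a1 rose by 1.24 over both diets (SE 0.21, 95% interval 0.81 to 1.67, 2.36-fold, adjusted p = 0.00109), with 12 of 12 ligated animals higher than the sham mean. On normal chow it rose by 1.38 (SE 0.30, 2.61-fold, adjusted p = 0.0306), the one chain of 18 called there, where 0.446% of all probes were called. On fat chow the difference was 1.10 (SE 0.30, 2.14-fold, adjusted p = 0.0846) and was not called; 0 of 18 chains were called there, against 0.882% of all probes. The difference between these 2 values was -0.28 (SE 0.42, adjusted p = 0.923), so a diet dependence was not shown. Over both diets it was 1.07 within the high-background arrays (adjusted p = 0.408) and 1.34 within the low-background ones (adjusted p = 0.0759). With the background as a block it was 1.21 (adjusted p = 0.00214). The call on normal chow ended when arrays were scaled by their medians in place of quantiles (1.36, adjusted p = 0.436) and without a filter on dim probes (1.38, adjusted p = 0.0682). The call over both diets held in each of the 24 fits without 1 animal. That on normal chow ended without ligated chow animals 4, 16, 23, 24 or 38 or sham chow animals 7, 9, 13 or 22. On fat chow Col8a1 was called without ligated fat animal 18 (1.27, adjusted p = 0.0291) or ligated chow animal 21 (1.10, adjusted p = 0.0431).

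Col14a1 codes for a collagen with interrupted triple helices that binds to the surface of type I fibrils. Its signal was 11.29, 12.03 and 12.61 in ligated fat animals, against 11.19, 11.39 and 11.84 in sham fat animals. It was 11.77, 12.31 and 12.51 in ligated chow animals, against 10.83, 11.43 and 12.06 in sham chow animals. Ligated animals were mostly high, with 8 of 12 above every sham animal, but the groups overlapped. Col14a1 rose by 0.69 over both diets (SE 0.14, 1.61-fold, adjusted p = 0.00473). On normal chow the difference was 0.80 (SE 0.20, adjusted p = 0.0628) and on fat chow 0.57 (SE 0.20, adjusted p = 0.206), neither called. On normal chow it was called without sham chow animal 15 (0.92, adjusted p = 0.0255), ligated chow animal 21 (0.90, adjusted p = 0.0216), or ligated fat animals 18 (0.80, adjusted p = 0.0273) or 28 (0.80, adjusted p = 0.0387). On fat chow it was called without ligated fat animal 18 (0.71, adjusted p = 0.0489) and with array weights (0.65, adjusted p = 0.0325). Within the high- and low-background arrays the difference over both diets was 0.60 (adjusted p = 0.519) and 0.84 (adjusted p = 0.128), and under median scaling 0.70 (adjusted p = 0.097).

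Col17a1 was dim, which limits its values: it was detected in 5 of 6 ligated fat, 5 of 6 ligated chow, 3 of 6 sham fat and 1 of 6 sham chow animals. The sham animals alone would not have passed the filter of 6 arrays, and the chain was not kept at a detection p under 0.01. Its signal was 5.79, 6.26 and 6.72 in ligated fat animals, against 5.62, 5.84 and 6.12 in sham fat animals. It was 5.69, 6.19 and 6.44 in ligated chow animals, against 5.48, 5.61 and 6.09 in sham chow animals. The groups overlapped on both diets, with 8 of 12 ligated animals above every sham animal. Col17a1 rose by 0.44 over both diets (SE 0.11, 1.35-fold, adjusted p = 0.0201). The difference was 0.42 on fat chow (adjusted p = 0.231) and 0.45 on normal chow (adjusted p = 0.216). Within the high- and low-background arrays it was 0.31 (adjusted p = 0.749) and 0.53 (adjusted p = 0.17) over both diets, and under median scaling 0.41 (adjusted p = 0.153).
The Col17a1 window, chr1:256518808-256519107 on the minus strand, is printed as that of the other called chain with an entry, again with matches in capitals.
Col17a1: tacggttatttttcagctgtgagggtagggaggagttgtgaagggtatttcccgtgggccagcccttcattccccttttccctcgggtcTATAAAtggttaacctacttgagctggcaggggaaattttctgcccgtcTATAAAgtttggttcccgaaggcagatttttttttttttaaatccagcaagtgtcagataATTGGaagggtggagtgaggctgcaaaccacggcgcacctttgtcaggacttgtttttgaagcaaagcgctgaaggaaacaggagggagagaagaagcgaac
It held 2 TATAAA and 1 CCAAT, printed as ATTGG, and no GGGCGG.

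**Figure D1:**
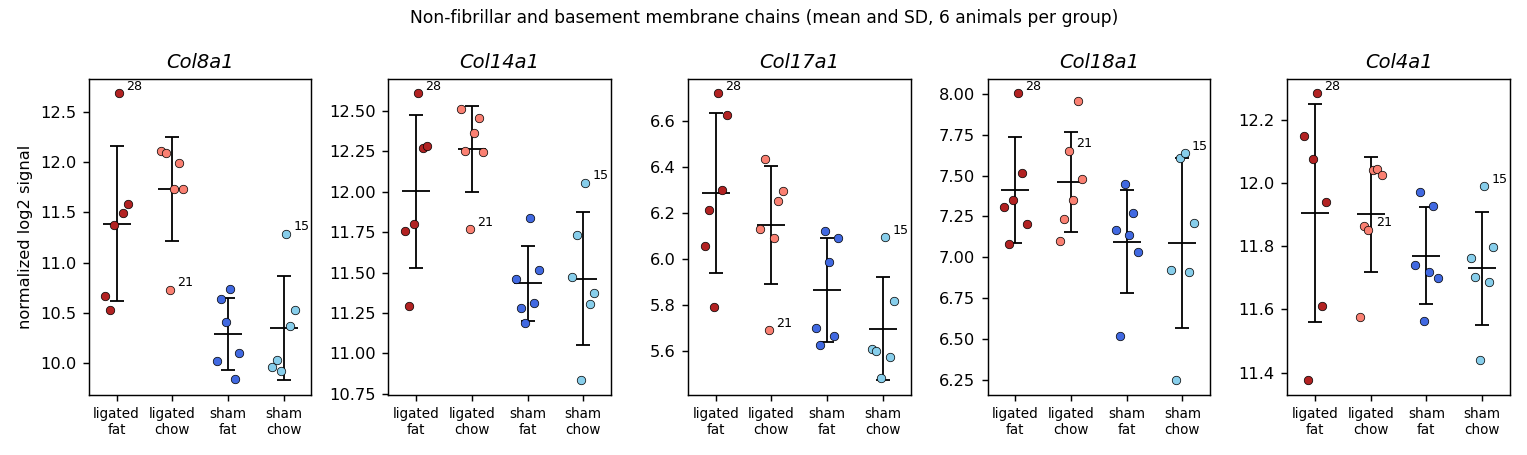
Normalized log2 signal of Col8a1, Col14a1, Col17a1, Col18a1 and Col4a1 in each animal, by group, with the mean (long bar) and SD (error bar) of 6 animals; each panel has its own axis and numbers mark animals 15, 21 and 28. Col8a1 averaged 11.39 in ligated fat and 11.73 in ligated chow animals, against 10.29 in sham fat and 10.35 in sham chow animals.

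Of the fibrillar chains, 5 of the 6 kept were higher over both diets and none was called. The median difference was 0.39 and the smallest adjusted p was 0.0654, for Col1a2. At an unadjusted p under 0.05, 4 of 6 passed, where 15.4% of all probes did.

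Col1a1 and Col1a2 code for the 2 chains of type I collagen, the main fibril of the heart. Col1a1 was 9.96, 10.20 and 11.55 in ligated fat animals, against 9.03, 9.22 and 9.88 in sham fat animals. It was 9.42, 10.64 and 11.23 in ligated chow animals, against 9.52, 10.23 and 11.72 in sham chow animals. On fat chow the groups did not overlap, while on normal chow they overlapped widely; among all probes, 0.797% were higher without overlap on fat chow, and Col1a1 was the one chain of 18. The difference was 1.04 on fat chow (SE 0.32, 95% interval 0.37 to 1.70, 2.05-fold, adjusted p = 0.147) and 0.19 on normal chow (SE 0.32, -0.47 to 0.85, adjusted p = 0.907), so neither was called. Over both diets it was 0.61 (SE 0.23, adjusted p = 0.163). Without sham chow animal 15, the animal with the highest Col1a1, it was 0.76 and called (adjusted p = 0.0314). Without ligated fat animal 28, the highest of its group, it was lower at 0.49 (adjusted p = 0.273). On fat chow the difference without animal 28 was 0.80 (adjusted p = 0.372). On normal chow the difference was 0.48 without animal 15 (adjusted p = 0.586) and 0.40 without ligated chow animal 21 (adjusted p = 0.757), and 0.04 without sham chow animal 7 or 9 or ligated chow animal 24.

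The Col1a2 signal was 13.91, 14.17 and 14.96 in ligated fat animals, against 13.63, 13.80 and 14.16 in sham fat animals. In ligated chow animals it was 14.04, 14.46 and 14.70, against 13.71, 13.88 and 14.75 in sham chow animals. Sham chow animal 15 at 14.75 lay above every ligated chow animal, and the groups overlapped on both diets. The difference was 0.39 on fat chow (adjusted p = 0.38), 0.44 on normal chow (adjusted p = 0.333) and 0.42 over both (SE 0.12, 1.34-fold, adjusted p = 0.0654). Over both diets it was called without sham chow animal 15 (0.49, adjusted p = 0.00923), ligated fat animals 18 (0.45, adjusted p = 0.0354) or 5 (0.45, adjusted p = 0.0429), or ligated chow animal 21 (0.46, adjusted p = 0.0317). It was also called with array weights (0.43, adjusted p = 0.0274). Without ligated fat animal 28 the difference over both diets was lower at 0.35 (adjusted p = 0.114). The Col1a2 window, chr4:33518307-33518606 on the plus strand, held 1 TATAAA and 1 CCAAT, printed as ATTGG.
Col1a2: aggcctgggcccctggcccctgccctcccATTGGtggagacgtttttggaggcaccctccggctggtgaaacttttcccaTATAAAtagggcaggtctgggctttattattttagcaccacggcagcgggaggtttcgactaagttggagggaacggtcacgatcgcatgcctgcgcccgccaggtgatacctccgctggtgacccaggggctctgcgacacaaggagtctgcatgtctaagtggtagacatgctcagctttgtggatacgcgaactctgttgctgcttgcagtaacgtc

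Col3a1 codes for type III collagen, the more elastic fibril that accompanies type I. Its signal was 10.50, 11.31 and 12.25 in ligated fat animals, against 10.04, 10.41 and 10.94 in sham fat animals. It was 10.60, 11.33 and 11.79 in ligated chow animals, against 10.06, 10.94 and 12.17 in sham chow animals. On fat chow 4 of 6 ligated animals lay above every sham animal, and on normal chow 0 of 6 did, with sham animal 15 at 12.17. The difference was 0.89 on fat chow (SE 0.29, adjusted p = 0.168), 0.29 on normal chow (SE 0.29, adjusted p = 0.792) and 0.59 over both (SE 0.20, adjusted p = 0.126). Without animal 15 it was 0.71 over both diets and called (adjusted p = 0.0284). Without ligated fat animal 28 it was lower at 0.50 over both diets (adjusted p = 0.217). On normal chow it was 0.53 without animal 15 (adjusted p = 0.48), 0.19 without ligated chow animal 4 (adjusted p = 0.938) and 0.11 without sham chow animal 13 (adjusted p = 0.938). Within the high-background arrays, whose only sham chow animals were 15 and 40, it was -0.22 on normal chow (adjusted p = 1). Within the low-background ones it was 0.55.

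Type V collagen is mixed into type I fibrils and limits their width. Col5a1 was 7.80, 8.40 and 9.18 in ligated fat animals, against 7.55, 7.93 and 8.22 in sham fat animals, and 8.05, 8.42 and 8.68 in ligated chow animals, against 7.96, 8.40 and 9.13 in sham chow animals. It differed by 0.61 on fat chow (adjusted p = 0.233) and by -0.04 on normal chow (adjusted p = 0.981). Col5a2 was 9.29, 10.30 and 10.93 in ligated fat animals, against 9.47, 9.85 and 9.97 in sham fat animals, and 10.00, 10.29 and 10.55 in ligated chow animals, against 9.35, 10.08 and 10.71 in sham chow animals. Both chains overlapped between the groups on either diet. Col5a2 differed by 0.43 (adjusted p = 0.43) and 0.31 (adjusted p = 0.655) on the same diets, and Col5a3 by 0.20 (adjusted p = 0.674) and -0.26 (adjusted p = 0.63). Col5a3 was dim and detected in 0 of 6 sham fat animals, where its value is only a bound. Over both diets Col5a2 differed by 0.37 (adjusted p = 0.207). Without ligated fat animal 18, its lowest ligated fat animal, that difference was 0.46 and called (adjusted p = 0.0374). Without ligated fat animal 28 it was 0.30 (adjusted p = 0.343).

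**Figure D2:**
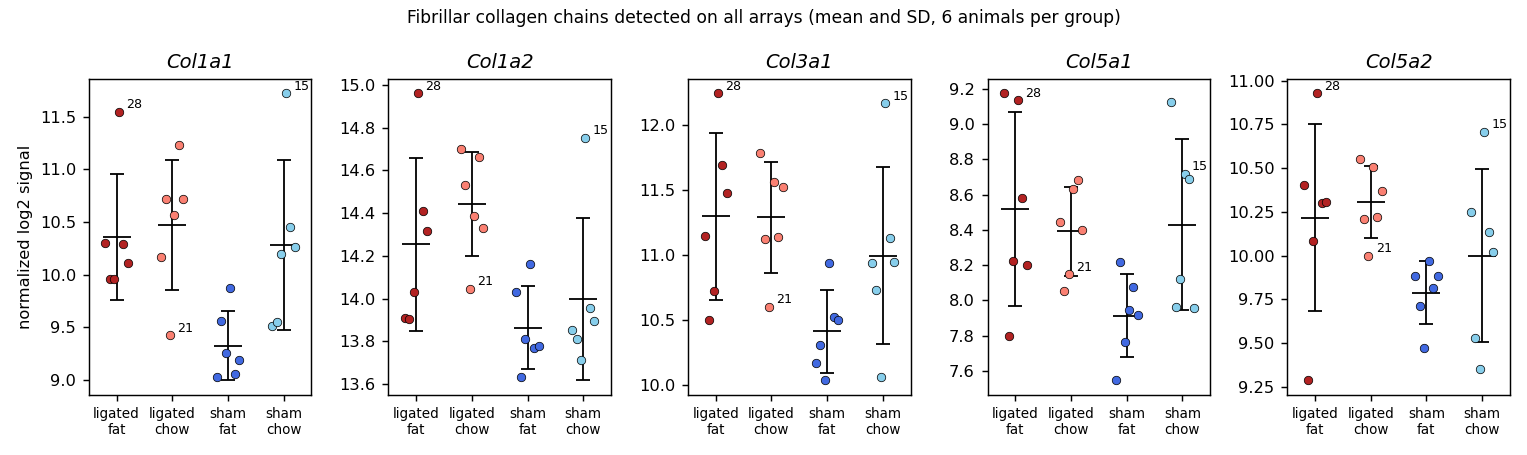
Normalized log2 signal of the 5 fibrillar chains detected on all arrays in each animal, by group, with the mean (long bar) and SD (error bar) of 6 animals; each panel has its own axis and numbers mark animals 15, 21 and 28. For Col1a1 the 6 ligated fat animals lie at 9.96 to 11.55, above all sham fat animals at 9.03 to 9.88, and sham chow animal 15 lies above its group.

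The interaction asks whether ligation acted differently on the diets, and no chain and 0% of all probes were called. For Col1a1 the difference of the ligation effects, fat chow minus normal chow, was 0.85 (SE 0.46, 95% interval -0.09 to 1.79, adjusted p = 0.873). It was 0.59 for Col3a1 (SE 0.40, -0.24 to 1.43, adjusted p = 0.889) and 0.64 for Col5a1 (SE 0.31, 0.01 to 1.28, adjusted p = 0.873). Without sham chow animal 15 these values were 0.56, 0.36 and 0.59. Of the 6 fibrillar chains 5 were above 0, with a median of 0.52, while 1 of the 8 other chains was, with a median of -0.03. Col5a3 (0.45), among these 5, was dim and passed the filter only with the sham chow animals, where it was highest. Of all probes 47.6% were above 0. Without animal 15, 4 of 6 fibrillar chains were above 0, with a median of 0.4. Within the low-background arrays, with 1 ligated fat animal, 3 of 6 were, with a median of 0.24. Within the high-background ones 6 of 6 were, with a median of 0.57. Median scaling left 0 of the 6 below 0, and put 14 of the 18 chains above 0, against 7 by the main settings. It moved the median of all probes to 0.08. At an unadjusted p under 0.05 Col5a1 alone passed, where 5.48% of all probes did. The interval of Col1a1 covers both no difference and one of more than 1.

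**Figure D3:**
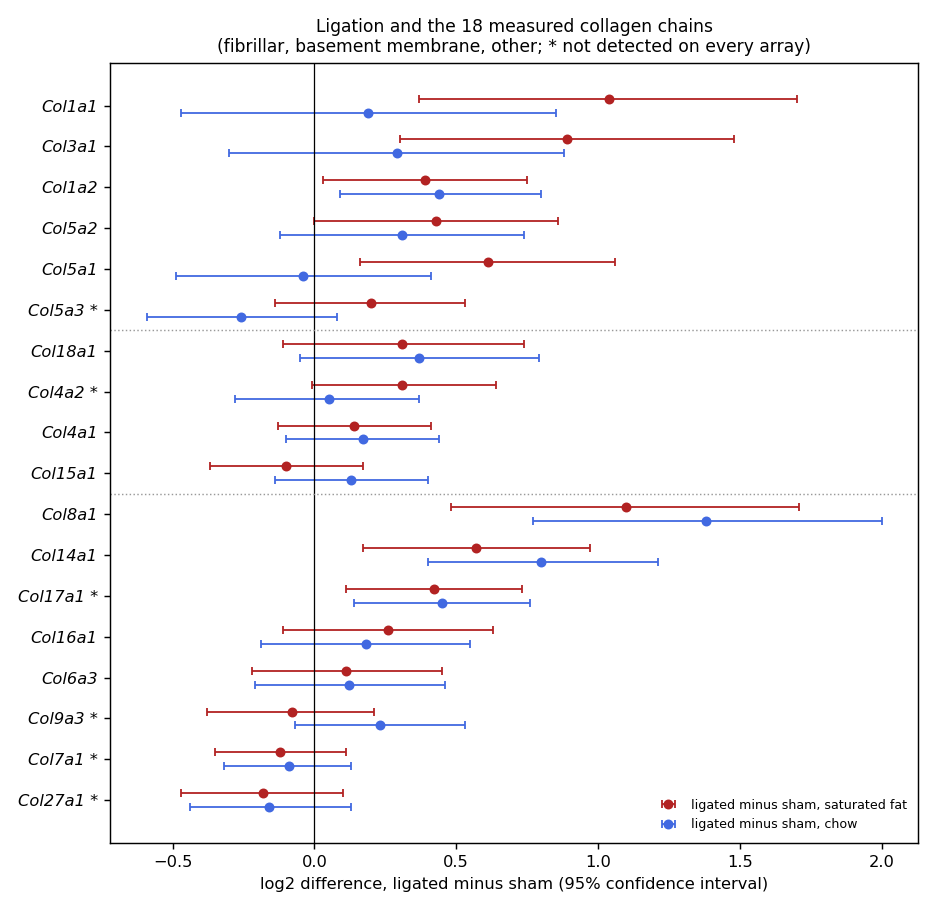
Log2 difference, ligated minus sham, of the 18 kept chains on saturated fat (red, upper of each pair) and on normal chow (blue, lower), with 95% confidence intervals from limma; dotted lines part fibrillar, basement membrane and other chains, and a star marks a chain not detected on every array. On fat chow the intervals of Col1a1 (0.37 to 1.70) and Col3a1 (0.30 to 1.48) lie above 0, and on normal chow theirs include 0. Those of Col1a2, Col8a1, Col14a1 and Col17a1 lie above 0 on both diets. For Col1a2, the other chain of type I, they are 0.03 to 0.75 on fat chow and 0.09 to 0.80 on normal chow. No chain had a called interaction.

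Saturated fat against normal chow was compared in sham and in ligated animals, to ask what the diet did to the chains. In sham animals 0 of 18 chains were called, against 0.019% of all probes, and in ligated animals 0 of 18, against 0.00949%. Over both surgeries 0 were called, against 0.0569%. At an unadjusted p under 0.05 in limma, 5 chains passed in sham, 0 in ligated animals and 1 over both, where 6%, 9.72% and 9.25% of all probes did. Of the 5 in sham animals, Col5a3 and Col4a2 were dim and detected in 0 of 6 sham fat animals. Col9a3, the 1 that was higher on fat chow (0.3), was detected in 0 of 6 sham chow animals. In sham animals all 6 kept fibrillar chains had a difference below 0, with a median of -0.47, where the median of all probes was 0.00 and 50.4% lay above 0. Among them Col5a3 (-0.42) was detected on only 6 arrays, 3 of them sham chow. It passed the filter only with the sham chow animals, where it was highest, so its sign here does not count as a separate result. Without sham chow animal 15, 5 of the 6 fibrillar chains were below 0, with a median of -0.38 and Col1a2 at 0.02. Within the low-background arrays 4 of 6 were, with a median of -0.23. Col1a1 differed by -0.96 (SE 0.32, 95% interval -1.62 to -0.29, adjusted p = 0.594), Col3a1 by -0.58 (adjusted p = 0.834) and Col5a1 by -0.52 (adjusted p = 0.774). Without animal 15 the Col1a1 difference was -0.67 (adjusted p = 0.741) and that of Col3a1 -0.35 (adjusted p = 0.88). Within the high-background arrays, whose only sham chow animals were 15 and 40, that of Col1a1 was -1.83 (adjusted p = 0.763). Within the low-background arrays, without animal 15, it was -0.43. The sham fat animals also stood against the ligated fat animals above, so these values and those of ligation on fat chow share 6 animals and do not count separately. In ligated animals the same 6 chains had a median of -0.04, with Col1a1 at -0.11 (adjusted p = 0.918) and Col3a1 at 0.01 (adjusted p = 0.993). Median scaling kept all 6 below 0 in sham animals, with a median of -0.42, where the median of all probes was 0.07. In ligated animals it moved the median of all probes to 0.16 and that of the 6 chains to 0.14, so the sign of Col1a1 flipped there (0.13, adjusted p = 0.879). The mean of the 5 fibrillar chains detected on all arrays, each set against its mean over all animals, ran from -0.44 to 1.03 in ligated fat animals and from -0.29 to 0.46 in ligated chow animals. It ran from -0.66 to -0.15 in sham fat animals and from -0.44 to 0.89 in sham chow animals. Without animal 15, at 0.89, the sham chow animals ran from -0.44 to 0.15, so the wider range of that group came from 1 animal.

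Of the basement membrane chains, 0 of 4 were called in any comparison, and 1 passed an unadjusted p under 0.05 for ligation over both diets in limma, where 3.1% of all probes were called and 15.4% passed. Their median difference over both diets was 0.17, with 4 of 4 above 0. Col18a1, whose end is cut off as endostatin, had the largest difference over both diets at 0.34 (SE 0.14, adjusted p = 0.235). It was 7.08, 7.33 and 8.0 in ligated fat animals, against 6.52, 7.15 and 7.45 in sham fat animals. It was 7.10, 7.42 and 7.95 in ligated chow animals, against 6.25, 7.07 and 7.64 in sham chow animals, and the groups overlapped on both diets. Col15a1, which bridges basement membranes and nearby fibrils, averaged 10.09 in ligated fat, 10.33 in ligated chow, 10.19 in sham fat and 10.20 in sham chow animals. It differed by 0.01 over both diets (95% interval -0.18 to 0.20, adjusted p = 0.977).

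Col4a1 and Col4a2 code for the 2 chains of the common type IV collagen and lie head to head. Their annotated starts are 77 bases apart on opposite strands, and their 300-base windows overlap by 176 bases, so the Col4a1 window, chr16:84885347-84885646 on the plus strand, holds the whole shared stretch; that of Col4a2 is chr16:84885471-84885770 on the minus strand.
Col4a1: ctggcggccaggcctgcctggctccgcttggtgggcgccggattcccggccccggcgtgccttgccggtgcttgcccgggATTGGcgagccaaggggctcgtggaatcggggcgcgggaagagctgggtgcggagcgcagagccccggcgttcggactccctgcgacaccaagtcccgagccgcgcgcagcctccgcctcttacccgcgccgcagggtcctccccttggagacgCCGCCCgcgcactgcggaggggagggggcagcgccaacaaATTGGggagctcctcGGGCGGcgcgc
The window printed held 2 GGGCGG, one of them as CCGCCC, and 2 CCAAT, as ATTGG. Col4a1 was 11.38, 12.01 and 12.28 in ligated fat animals, against 11.56, 11.73 and 11.97 in sham fat animals. It was 11.58, 11.94 and 12.05 in ligated chow animals, against 11.44, 11.73 and 11.99 in sham chow animals, overlapping on both diets. It differed by 0.15 over both diets (SE 0.09, 95% interval -0.04 to 0.34, adjusted p = 0.468). Col4a2 was dim and was detected in 4 of 6 ligated fat, 3 of 6 ligated chow, 0 of 6 sham fat and 4 of 6 sham chow animals. It was 5.45, 6.02 and 6.52 in ligated fat animals, against 5.46, 5.68 and 5.83 in sham fat animals. It was 5.65, 5.99 and 6.71 in ligated chow animals, against 5.83, 6.03 and 6.14 in sham chow animals. The Col4a2 difference over both diets was 0.18 (adjusted p = 0.486). Sham fat animals lay below all sham chow animals (-0.33, adjusted p = 0.821), where 0.18% of all probes did so. The highest sham fat and the lowest sham chow value were both 5.83 after rounding. Since 0 of 6 sham fat and only 4 of 6 sham chow animals were above background, the size of this difference cannot be given.

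No further chain was called. Col6a3, a chain of the beaded microfibrils, averaged 12.41 in ligated fat, 12.64 in ligated chow, 12.30 in sham fat and 12.52 in sham chow animals. It differed by 0.12 over both diets (adjusted p = 0.703) and Col16a1, which binds fibrils, by 0.22 (adjusted p = 0.454). Col27a1, a fibrillar collagen by structure, differed by -0.17 (adjusted p = 0.443). Col9a3, known from cartilage, and Col7a1, from the anchoring fibrils of skin, were dim and differed by 0.07 (adjusted p = 0.814) and -0.11 (adjusted p = 0.579). Col7a1 was detected in 0 of 6 ligated fat animals and Col9a3 in 0 of 6 sham chow animals.

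Chains that meet in one fibril or one molecule were compared across animals. For each pair, deviations from the group means were correlated over 24 animals, with permutation within groups, two-sided, and Benjamini-Hochberg adjustment over the 6 pairs that were measured of 11 listed. Col3a1 and Col5a2 had Pearson's r = 0.885 (permutation p = 1e-05, the smallest the permutations can give, adjusted p = 6e-05) and Spearman's rho = 0.81 (permutation p = 4e-05). Without the 2 animals farthest from the median on the first chain, 15 and 28, r was 0.806. Col1a2 and Col3a1 had r = 0.834 (permutation p = 0.0001, adjusted p = 0.0003; rho = 0.711), and 0.659 without those animals. Col5a1 and Col5a2 had r = 0.701 (permutation p = 0.0027; rho = 0.669), and 0.60 without animals 18 and 7, the farthest on Col5a1.

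The linear correlations with Col1a1 were lower without the 2 farthest animals. Col1a1 and Col1a2 had r = 0.775 (permutation p = 0.00099; rho = 0.551, permutation p = 0.00938, adjusted p = 0.0127), and 0.449 (permutation p = 0.0572) without animals 15 and 28. Col1a1 and Col3a1 had r = 0.677 (permutation p = 0.00308; rho = 0.551, permutation p = 0.0106, adjusted p = 0.0127), and 0.341 (permutation p = 0.149) without them. Within the low-background arrays these 2 values were 0.548 (permutation p = 0.147) and 0.341 (permutation p = 0.383) over 11 animals, and within the high-background arrays 0.905 and 0.834 over 12. Animals 15 and 28 were both on high-background arrays, so this split and the values without them do not count separately. The other fibrillar pairs stayed at 0.795 to 0.892 within the high and at 0.816 to 0.865 within the low set. Col4a1 and Col4a2 had r = 0.465 (permutation p = 0.0632) and rho = 0.539 (permutation p = 0.0162). Within the high and low sets their r was 0.429 (permutation p = 0.152) and 0.0808 (permutation p = 0.887). Col4a2 was detected on only 11 of 24 arrays, which limits this pair. All points share the array of the animal. Chains that do not meet in a fibril or molecule were not correlated with each other. Whether partner chains covary more than other chains was therefore not tested.

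**Figure D4:**
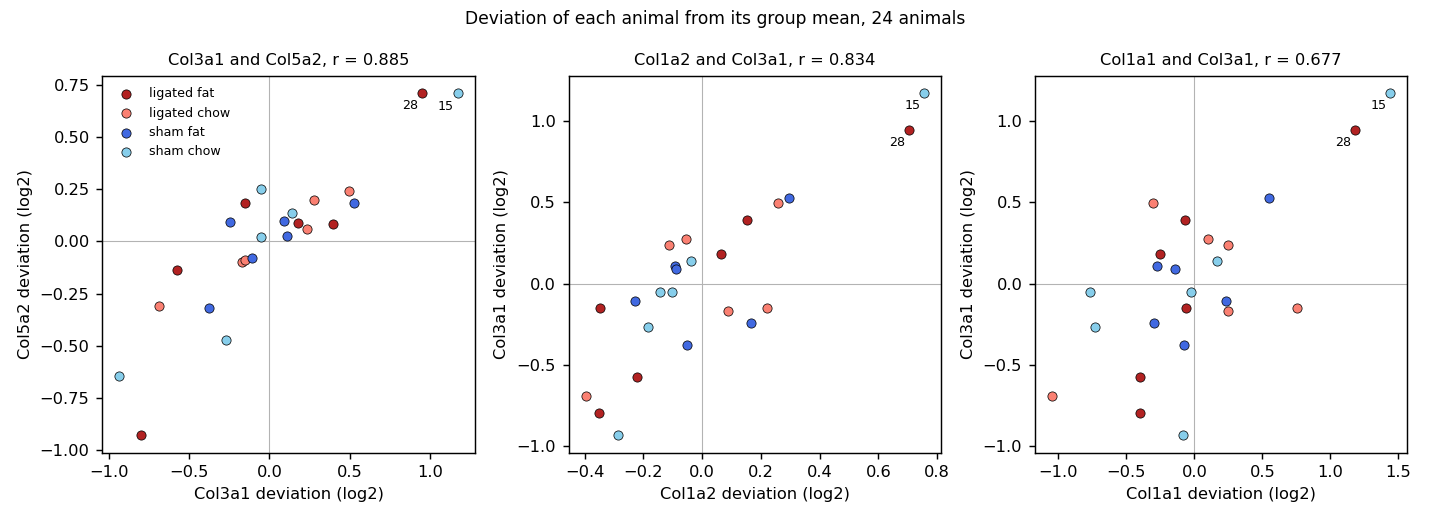
Deviation of each of 24 animals from its group mean for Col5a2 against Col3a1, Col3a1 against Col1a2 and Col3a1 against Col1a1, coloured by group, in log2 units on both axes. Animals 15 and 28 lie at the top right of each panel, and without them r for Col1a1 and Col3a1 is 0.341, against 0.677 with them.

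Genes that process collagen were followed by lists. Over both diets 46.1% of all probes lay above 0, 3.1% were called, 2.02% were called higher and 15.4% passed an unadjusted p under 0.05, and the counts below are read against these shares. Procollagen is trimmed and crosslinked outside the cell, and 7 of 7 kept genes of that list were higher over both diets, with 2 called and a median of 0.46. Tgm2, a transglutaminase that crosslinks matrix proteins, rose by 0.80 (SE 0.09, adjusted p = 4.47e-06), with 12 of 12 ligated animals above every sham animal, as for 0.038% of all probes, and was called on either diet. Pcolce, which speeds the trimming of procollagen, rose by 0.41 (adjusted p = 0.0447). Bmp1, the trimming protease, differed by 0.30 (adjusted p = 0.0735).

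Proteins bound to fibrils were higher in 14 of 14 kept genes, with 5 called and a median of 0.41, against 46.1% of all probes above 0 and 3.1% called. Bgn, a small proteoglycan, rose by 0.72 (adjusted p = 0.00501) and was also called on fat chow (0.85, adjusted p = 0.0459). Fbln1 and Fbln2, matrix glycoproteins, rose by 0.67 (adjusted p = 0.00955) and 0.63 (adjusted p = 0.000305), Fmod by 0.48 (adjusted p = 0.026) and Prelp by 0.42 (adjusted p = 0.0139). Fbln2 was also called on either diet. Inside the cell, 0 of 12 kept genes of the folding list were called in limma and 2 passed an unadjusted p under 0.05, near the 15.4% of all probes, with a median of 0.04; Serpinh1, the collagen chaperone, differed by 0.26 (adjusted p = 0.246). Of the receptors, Itga11, an integrin for fibrillar collagen, rose by 0.47 (adjusted p = 0.0411), as 1 of 5 kept, with a median of 0.18.

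Collagen-degrading enzymes and inhibitors gave 0 calls in limma among 7 kept, with 3 at an unadjusted p under 0.05 and a median of 0.21; Timp1, the largest, differed by 0.58 (adjusted p = 0.102). Among ligands that raise collagen synthesis, 2 of 8 kept were called: Tgfb2 rose by 1.13 (adjusted p = 0.0128) and Ccn2 by 1.10 (adjusted p = 0.00132), while the list's median was 0.11. Ccn2 was also called on fat chow. Partners of basement membranes gave 0 calls in limma among 9 kept, with 4 at an unadjusted p under 0.05 and a median of 0.18. Across the 7 lists, the called genes lie in processing, fibril-bound proteins, receptors and ligands.

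**Figure D5:**
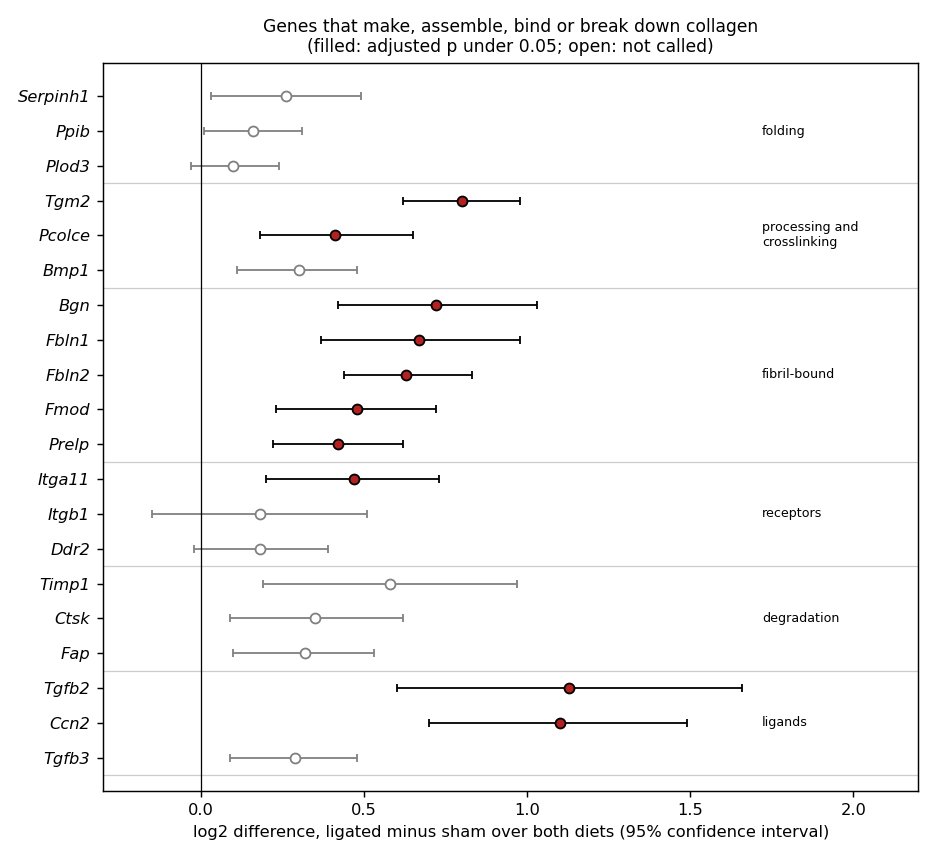
Log2 difference, ligated minus sham over both diets, with 95% confidence intervals from limma, for the 3 genes with the smallest p and every called gene of 6 lists (partners of basement membranes are not drawn); filled points are called at an adjusted p under 0.05 and open points are not. Folding and degradation genes are all open, and Tgfb2 (1.13) and Ccn2 (1.10) lie farthest right.

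Markers of the cells that could carry these transcripts were measured on the same arrays, where 46.1% of all probes lay above 0 and 3.1% were called over both diets. Of 12 fibroblast markers, 11 were kept and 11 of these lay above 0 over both diets, with Cd248 (0.68, adjusted p = 0.000304), Pi16 (1.18, adjusted p = 0.00154) and Mfap4 (0.82, adjusted p = 7.56e-06) called and Thy1 not kept. Their summed level had medians of 16.15 in ligated fat, 16.11 in ligated chow, 15.91 in sham fat and 15.97 in sham chow animals. The summed level ran from 15.81 to 16.31, 16.00 to 16.20, 15.78 to 16.05 and 15.81 to 16.18 in these groups. Of the macrophage markers 9 of 9 kept lay above 0, with C1qa, C1qb and C1qc called (0.55 to 0.66). For cardiomyocytes 4 of 10 markers lay above 0, with 0 called and 0 at an unadjusted p under 0.05 in limma.

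Of 6 listed myofibroblast markers, of activated matrix-making cells, 5 of 5 kept lay above 0, with 0 called in limma, 2 at an unadjusted p under 0.05 and Acta2 not kept. Their summed level was 11.32, 11.48 and 12.88 in ligated fat animals, against 10.73, 10.89 and 11.07 in sham fat animals. It was 10.73, 11.48 and 12.31 in ligated chow animals, against 10.73, 11.31 and 12.89 in sham chow animals. The value of 12.88 was ligated fat animal 28 and that of 12.89 sham chow animal 15, the animals highest in Col1a1. The fibroblast sum of animal 15 was 15.96, near the median of its group. That of animal 28 was 16.28, near the top of its group, which had a median of 16.15 and a highest value of 16.31. Endothelial markers lay above 0 in 7 of 7 kept, with Vwf called (0.32, adjusted p = 0.0342), and smooth muscle markers in 2 of 4. Of other cell types, 1 of 5 epicardial, 1 of 6 cartilage and 2 of 5 adipocyte markers were kept, and 0 were called in limma, with 1 at an unadjusted p under 0.05, a cartilage marker; Wt1, Sox9 and Adipoq were not kept. The part of these cells in the collagen differences was not tested.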

How the data were processed

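Signals were measured in left ventricle RNA of 24 rats, labelled with Cy3, 1 array per animal, in 4 groups of 6 taken from the labels. The deposited intensity is the mean over the beads of a 50-base probe, written by BeadStudio 3, per the submitters' processing notes, with a detection p-value per probe per the file headers. A second deposited table holds intensity values normalized by the authors by a method not given in the sources used here. Signals were background-corrected and quantile normalized with neqc of limma 3.58.1 in R 4.3.3 (negative controls inferred from detection p-values, offset 16), and analysed as log2 signal. Of 22517 probes, the 10540 with a detection p-value below 0.05 in 6 or more arrays were kept. limma was fitted to the 4 group means of all kept probes with 20 residual degrees of freedom, and p-values were Benjamini-Hochberg adjusted over the 10540 probes in each of 7 comparisons: ligation on each diet and over both, diet in each surgery and over both, and their interaction. Animals are separate individuals.

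Members and lists were chosen with earlier results of these data known. Values by animal are given for Col1a1, Col3a1, Col8a1, Col14a1, every called chain and the 3 kept chains of each class with the largest statistic for ligation over both diets, and Col4a1 and Col4a2 were set side by side; genes of other lists are the 3 with the smallest p for ligation over both diets and every called one. A list gene with several kept probes is represented by the brightest. Names and promoter windows came from RefSeq tables of GRCr8; 6330 probes were named by accession, 4391 by symbol and 1404 by synonym. The code was tested on simulated data. Alternatives covered background correction, normalization, filter, array weights, batch and each animal left out. One further marker list is not reported here.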

Additional observations from a re-analysis of the deposited data

Results flagged for a closer look

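Among 72 sets of 6 animals, 6 held an animal set apart from its group by a gap that Dixon's 95% limit marks, where chance marks about 1 set in 20, and the chains of an animal share its array. Ligated fat animal 28 was high for Col1a1 at 11.55, with the next animal at 10.30, and for Col27a1 at 6.57, with the next at 6.17. Sham chow animal 15 was high for Col1a2 at 14.75, with the next at 13.96, and for Col6a3 at 13.09, with the next at 12.52. Ligated chow animal 21 was low for Col14a1 at 11.77, with the next at 12.25, and for Col8a1 at 10.73, with the next at 11.73. No chain had a called interaction, and for 0 chains did all animals of 2 comparisons move in opposite directions.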

How the results depend on the processing

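No paired analysis was possible because every animal has its own number and no number occurs in 2 groups. No called difference changed sign; of 2227 differences of named chains under alternatives, 112 changed sign without a call in either. The number of chains called for ligation on normal chow, 1 by the main settings, was 2 without background correction, with the authors' normalized values and with array weights, adding Col14a1. It was 0 under median scaling, without a filter on dim probes, and within either background set alone. For ligation on fat chow array weights gave 2 calls, Col8a1 and Col14a1, in place of 0. Over both diets, median scaling gave 1, Col8a1, and each background set alone gave 0, and array weights gave 4, adding Col1a2, in place of 3; the background sets hold fewer arrays. The background as a block changed no count. At a detection p under 0.01 Col17a1 was not kept. The median of the chains for fat in sham animals was -0.36 within the high-background arrays, against -0.10 in all. Covariation of Col1a1 with Col1a2 was 0.45 without the 2 farthest animals and 0.55 within the low-background arrays, and with Col3a1 it was 0.34 and 0.34. The 2 farthest animals, 15 and 28, were both on high-background arrays, whose only sham chow animals were 15 and 40. The cause of these moves was not tested where fewer arrays do not account for it.

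Leaving out 1 animal at a time, chains called ranged from 0 to 2 for ligation on normal chow, from 0 to 2 on fat chow, and from 3 to 6 over both diets. The highest count came without sham chow animal 15, which added Col1a1, Col1a2 and Col3a1; without ligated fat animal 18 it was 5. Col8a1, Col14a1 and Col17a1 were called over both diets in 24 of 24 such fits. Dim chains near background, Col4a2, Col5a3, Col7a1, Col9a3 and Col17a1 among them, limit what the signals can show. An alternative added after seeing the data kept the 12 chains detected on all 24 arrays.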
